A study of Mus musculus with 27 samples.

Results

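Rab GTPases are the small G proteins that give each membrane compartment its identity, and 58 of the 23420 genes in the B16 melanoma expression tables carried a symbol made of Rab, a number and at most a letter and a digit. B16 is a pigmented mouse melanoma line. The RNA came from 27 samples in 9 groups of 3, made up of parental B16 cells and its derivatives clone 2 and clone 9, each transfected with Tbx2 siRNA for 48 h, transfected with control siRNA for 48 h, or left untransfected. In the derivatives a 3xHA epitope tag had been added to Tbx2 at 1 or more copies of its own locus. A self-cleaving peptide and a neomycin resistance gene were inserted with the tag, and cells were selected for that resistance. Per the study clone 2 seemed to keep some Tbx2 without the tag. Each derivative was grown from 1 clone, so a clonal difference and an effect of the tag, the inserted cassette or the selection cannot be told apart. The levels described here are the authors' mean normalized counts, 1 value per gene, from 3 tables of Tbx2 siRNA against control siRNA, 1 for each line. The mean was the same in all 3 tables, with a largest difference of 0, and the sources used here do not state which samples it covers. It therefore mixes lines and treatments, carries no spread, and cannot show a response to Tbx2 siRNA, so every value below is a description with no test. Neighbours in any order of levels cannot be said to differ beyond their spread.

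A Rab is switched on when an exchange factor replaces its GDP with GTP, recruits tethers, motors and fusion factors to the membrane while it is on, and is switched off when a GTPase-activating protein speeds hydrolysis. A lipid tail holds it in the membrane, and GDP dissociation inhibitors take the inactive form back to the cytosol. Pigment cells use general traffic Rabs and also a specialised set. Rab38 and Rab32 direct the delivery of pigment enzymes to the maturing melanosome, and loss of Rab38 underlies the chocolate coat colour in mice. Rab27a tethers mature melanosomes to actin through melanophilin and myosin Va, and its loss underlies the ashen coat.

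The melanosomal members were described first by their start regions, since the study examined T-box and E-box sequences beneath Tbx2 peaks. RefSeq windows, each covering 250 bases before to 50 bases after a start site in the GRCm38.p6 build, matched 48 of the 58 Rab genes. Those without an entry were Rab18, Rab26, Rab27b, Rab2a, Rab30, Rab36, Rab37, Rab38, Rab44 and Rab4a. The E-box CACGTG, which reads the same on both strands, lay in a window of 6 Rab genes (12.5%), against 8.09% of 27025 genes with a window. These were Rab20, Rab21, Rab23, Rab24, Rab27a and Rab5a. The T-element sequence AGGTGTGA, searched on both strands, lay in a window of 1 Rab gene, Rab27a (2.08%), against 1.48% of all genes. AGGTGTGA is the consensus that the paper cites for T-box factors from in vitro work. Beneath its Tbx2 peaks the study reported a shorter near-consensus motif, GTGTGA after a G or an A. That shorter motif was not counted here, and windows without AGGTGTGA can hold it, as that of Rab21 does. A match describes letters in the window and does not show binding. Rab27a lies on the plus strand and has a pair of annotated starts, at chr9:73044560-73044859 and chr9:73063898-73064197. Both windows are shown because they hold the T-element and the E-box, followed by the plus-strand window of Rab5a at chr17:53478984-53479283, which holds 2 E-boxes. Each is given 5′ to 3′ along the gene, and capitals mark the motif. In the upstream Rab27a window the capitals spell the T-element as read from the other strand.
Rab27a upstream start: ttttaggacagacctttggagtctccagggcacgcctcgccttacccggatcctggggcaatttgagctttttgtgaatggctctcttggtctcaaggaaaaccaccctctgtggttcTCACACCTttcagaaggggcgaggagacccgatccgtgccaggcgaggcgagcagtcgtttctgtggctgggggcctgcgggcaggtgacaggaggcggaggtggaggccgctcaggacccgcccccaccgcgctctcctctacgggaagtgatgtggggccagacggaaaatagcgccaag
Rab27a downstream start: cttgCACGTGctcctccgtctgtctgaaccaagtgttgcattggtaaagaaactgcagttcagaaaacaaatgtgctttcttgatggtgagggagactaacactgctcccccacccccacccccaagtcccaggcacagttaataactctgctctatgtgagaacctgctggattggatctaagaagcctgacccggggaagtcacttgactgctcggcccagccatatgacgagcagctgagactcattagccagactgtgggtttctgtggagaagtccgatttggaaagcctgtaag
Rab5a start: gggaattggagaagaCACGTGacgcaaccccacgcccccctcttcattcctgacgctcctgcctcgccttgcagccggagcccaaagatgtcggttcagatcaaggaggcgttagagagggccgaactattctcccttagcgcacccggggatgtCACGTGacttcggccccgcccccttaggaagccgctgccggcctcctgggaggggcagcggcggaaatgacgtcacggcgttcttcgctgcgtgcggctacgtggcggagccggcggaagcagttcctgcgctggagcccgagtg

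Counting the start site as position 0 and reading along the gene, the T-element began at position -132 at the upstream Rab27a start, and the E-box at position -246 at the downstream one. The E-boxes of Rab5a began at positions -235 and -95. The E-box of Rab24 began at position 2, just after the start site, that of Rab21 at -30 and that of Rab20 at -46. That of Rab23 began at -218, at its upstream start. The window of Rab32 at chr10:10558158-10558457, on the minus strand, held neither motif.

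A mean normalized count of 10 was taken as the floor for a detected gene. On that scale 42 of the 58 Rab genes (72.4%) were at or above the floor, against 10121 of all 23420 genes (43.2%). The other 16 were below it, 10 of them below 1, and 0 were listed at 0, whereas 2524 genes of the whole table were. At the upper end 30 Rab genes reached a mean normalized count of 100 and 8 reached 500. The median level of the 42 Rab genes was 145 (quartiles 88.3 and 417), against 131 (quartiles 52.5 and 325) for all genes at or above the floor. This order turned round at a floor of 50, where the medians were 183 for Rab genes and 196 for all genes. A gene passed only through its own level, so these medians describe the detected genes alone. The summed mean normalized count of all 58 was 19935, which was 0.514% of the sum over all genes. Because the libraries were read from the 3′ ends of transcripts, the values were not divided by gene length. For some comparisons the value per kilobase of the longest GENCODE transcript is given as well. It shows only how far a comparison moves with annotated length, since such libraries do not call for division by length.

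**Figure D1:**
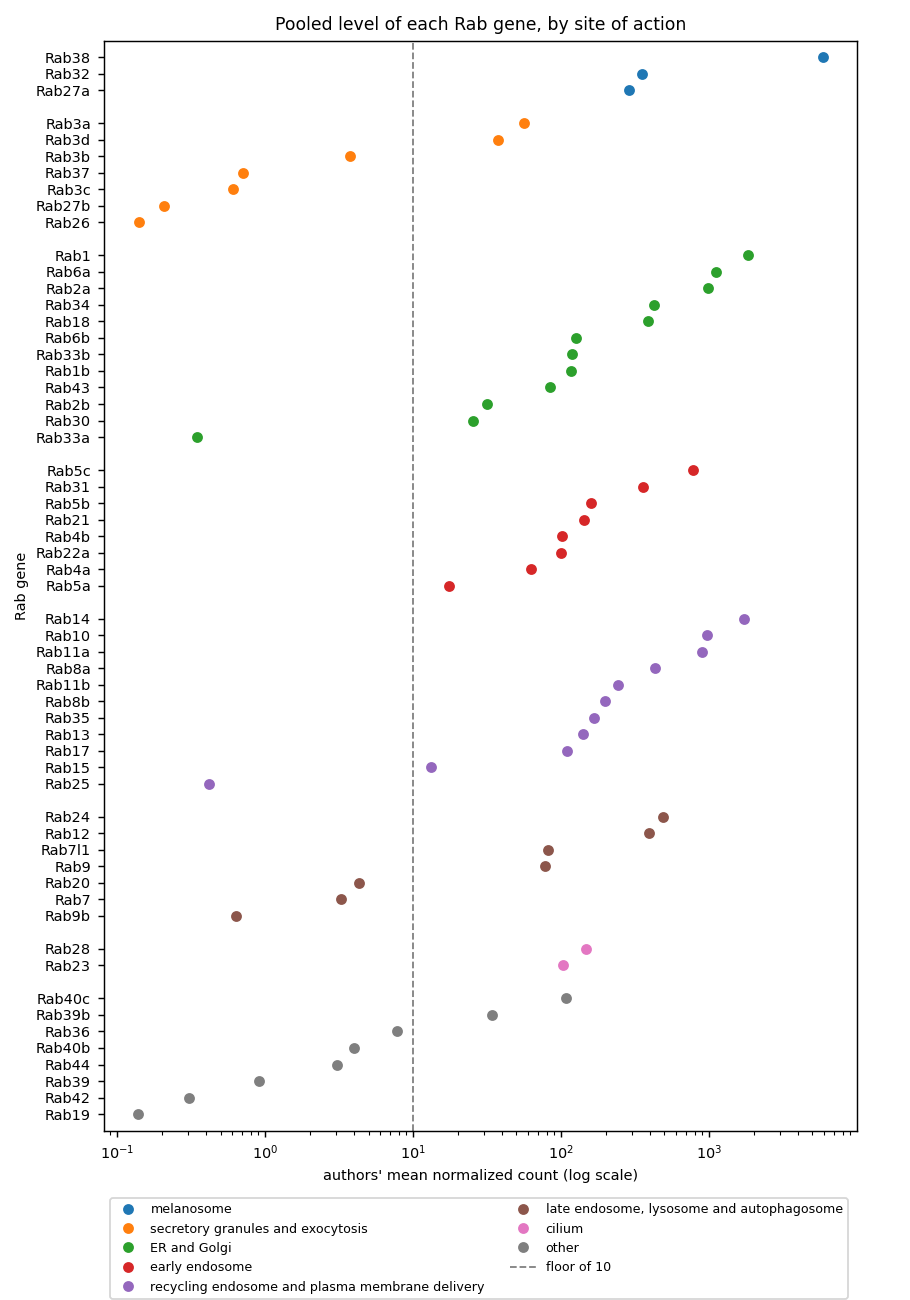
Mean normalized count of each of the 58 Rab genes (points, log axis), grouped by site of action with the melanosomal Rabs at the top; the dashed line is the floor of 10 and no error can be drawn for a pooled mean. Rab38, at 5861, sits apart at the right, while most secretory granule Rabs lie left of the floor.

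Rab38 had the highest level of all Rab genes, with a mean normalized count of 5861, above 99.4% of the genes at or above the floor. It lies on chromosome 7, plus strand (chr7:88430273-88491572, GRCm38). The next Rab gene, Rab1, was at 1843, so that Rab38 was 3.18-fold higher on the mean normalized count scale and 5.70-fold higher per kilobase. The other melanosomal Rabs were far lower. Rab32 (chr10:10545002-10558265, minus strand) had a mean normalized count of 351, rank 15 of the 58, and Rab27a (chr9:73044854-73097629, plus strand) had 289, rank 16. Rab38 was 16.7-fold above Rab32 on the mean normalized count scale and 22.8-fold above it per kilobase. Rab32 and Rab27a lay close together, with a ratio of 1.22 in mean normalized count and 1.79 per kilobase. The melanosomal Rabs together held 32.6% of the summed Rab level, of which Rab38 alone held 29.4% and Rab27a with Rab32 held 3.21%. Setting them apart left 55 general and other Rabs, of which 39 were at or above the floor, with a median mean normalized count of 141.

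The secretory granule Rabs were the least abundant of the larger groups. Of the 7 members, 2 were at or above the floor, against 72.4% of all Rab genes and 43.2% of all genes. The group, which leaves Rab27a to the melanosomal Rabs, held 0.495% of the summed Rab level. Rab3a and Rab3d, which act in the docking of regulated secretory granules, had mean normalized counts of 56.0 and 37.4. Rab3b was at 3.72 and Rab3c at 0.603. Rab27b, the close relative of Rab27a that serves secretion in other cell types, was at 0.206, and Rab37 and Rab26 were at 0.704 and 0.141.

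The Rabs of the ER and Golgi formed the second largest share, 26.4% of the summed Rab level, with 11 of 12 members at or above the floor. Rab1, which drives transport from the ER to the Golgi and is annotated as Rab1a, had a mean normalized count of 1843, and its relative Rab1b had 116. Rab6a, which acts in traffic within and back from the Golgi, had 1114, and Rab6b had 126. Rab2a, which acts between the ER and Golgi, had 984, and Rab2b had 31.8. Within each of these families 1 gene thus supplied most of the counts. Rab34 was at 426, Rab18, found on lipid droplets and the ER, at 387, and Rab33b, a Golgi Rab linked to autophagy, at 118. Rab43 and Rab30 were at 84.6 and 25.4. Rab33a, at 0.347, was the member below the floor.

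All 8 early endosome Rabs were at or above the floor, but their summed level was modest, 8.60% of the Rab total. Rab5 proteins drive the fusion of early endosomes, and Rab5c had the highest mean normalized count of them at 777, followed by Rab5b at 159 and Rab5a at 17.6. The last 500 bases of Rab5a overlap Pp2d1 on the opposite strand. Rab31 was at 356 and Rab21, which binds integrins, at 143. Rab4b and Rab4a, which act in rapid recycling, were close together at 101 and 62.7, and Rab22a was at 99.4. Rab4b shares the end of its transcript with Gm21983 on the same strand, so its value is uncertain.

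The Rabs of recycling endosomes and delivery to the plasma membrane held 24.6% of the summed level, with 10 of 11 at or above the floor. Rab14, which links endosomes and the Golgi, had a mean normalized count of 1736, rank 3 among the Rab genes, though rank 6 per kilobase. Rab10, known for the delivery of glucose transporters in fat cells, had 965. Rab11a, the main Rab of recycling endosomes, had 896, and Rab11b had 243. Rab8a and Rab8b, which bring vesicles to the plasma membrane and cilium, were at 433 and 199. Below these came Rab35 at 168, Rab13, known from tight junctions, at 141, Rab17 at 109 and Rab15 at 13.3. Rab25, an epithelial relative of Rab11, was below the floor at 0.416.

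The late endosome, lysosome and autophagosome group held 5.27% of the summed level, with 4 of 7 members at or above the floor. Rab24, linked to autophagy, was the highest of them with a mean normalized count of 492, and Rab12 followed at 391. Rab7l1, a Golgi and lysosome Rab also known as Rab29, was at 81.5, and Rab9, which returns receptors from late endosomes to the Golgi, was at 78.4. Rab7, the Rab that defines late endosomes in most cells, had a mean normalized count of only 3.28 and rank 46 per kilobase. It lies at chr6:87999106-88045270 on the minus strand, and no other annotated gene overlaps its last 500 bases. Its exchange factor subunits were present, with Ccz1 at 380, Mon1b at 44.0 and Mon1a at 26.7, whereas its effector Rilp was at 4.48. How reads at the Rab7 locus were assigned was not tested, so the value does not show that Rab7 is absent. The share of the group and its count at or above the floor both include this value. Rab20 and Rab9b were at 4.31 and 0.633.

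Both ciliary Rabs were at or above the floor, Rab28 with a mean normalized count of 148 and Rab23, an inhibitor of Hedgehog signalling in mice, with 103. Of the 8 Rabs outside these groups, Rab40c at 108 and Rab39b at 34.3 were at or above the floor. The others were Rab36 at 7.83, Rab40b at 4.01, Rab44 at 3.04, Rab39 at 0.907, Rab42 at 0.304 and Rab19 at 0.138. The 5 Rab genes of highest level, Rab38, Rab1, Rab14, Rab6a and Rab2a, together held 57.9% of the summed mean normalized count.

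**Figure D2:**
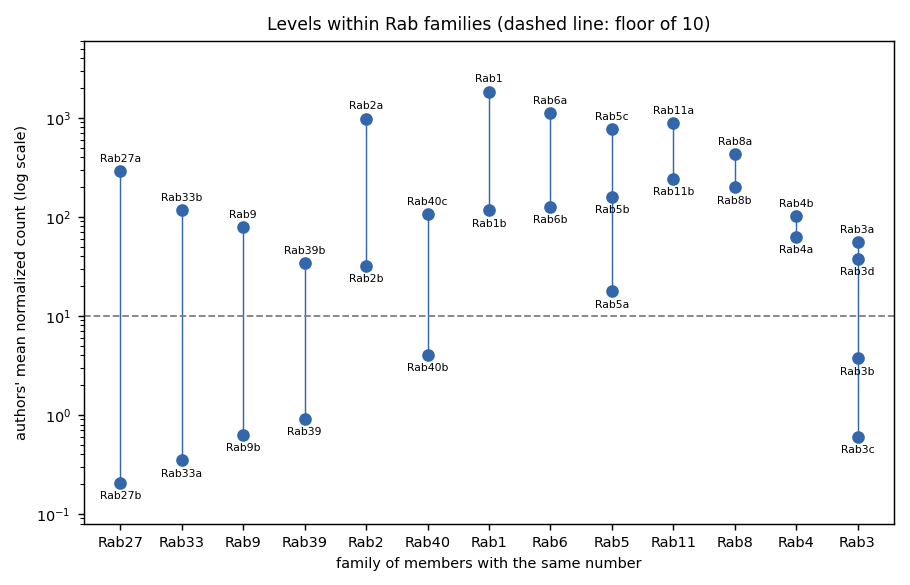
Mean normalized count (log axis) of the members of the 13 Rab families that share a number, ordered by the share in the highest member, with a line joining the members of a family and a dashed line at the floor of 10. Rab27, Rab33, Rab9, Rab39 and Rab40 have members on both sides of the floor, as does Rab3, whereas Rab4 and Rab8 hold members of similar level.

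Members with the same number are close relatives with overlapping roles. Of 13 such families, 9 had more than 80% of their summed mean normalized count in 1 gene, and in all 13 the highest member was also the highest per kilobase. Among these 9, Rab27, Rab33, Rab39, Rab40 and Rab9 had only 1 member at or above the floor. Rab2a exceeded Rab2b 30.9-fold in mean normalized count and 51.9-fold per kilobase. Rab1 exceeded Rab1b 15.8-fold and 10.7-fold on these scales, and Rab6a exceeded Rab6b 8.82-fold and 13.7-fold. Rab5c exceeded Rab5b 4.90-fold and 7.92-fold. Some families were more even in mean normalized count, though per kilobase Rab11 was less even than Rab5. Rab4b exceeded Rab4a 1.62-fold in mean normalized count and 1.67-fold per kilobase, and Rab8a exceeded Rab8b 2.18-fold and 2.27-fold. Rab3a exceeded Rab3d 1.496-fold in mean normalized count and 3.74-fold per kilobase. Rab11a exceeded Rab11b 3.68-fold in mean normalized count and 9.63-fold per kilobase. Close paralogs can share reads. The treatment of reads that matched more than 1 gene is not stated by the sources. The same holds for genes that overlap at their ends: Rab43 with Gm45140 and Rab26 with Traf7 on the same strand, and Rab10, Rab3a, Rab2b and Rab3b with a gene on the opposite strand, since no strand setting of the counting is given. No ratio is given against a member below the floor.

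The machinery that loads, activates and reads out Rabs was described for 48 genes, of which 41 were at or above the floor, against 43.2% of all genes. Their median mean normalized count was 75.5. The 48 genes were listed as known Rab partners, so the counts here and in the groups below describe chosen lists. All 5 genes described for prenylation and GDP dissociation were at or above the floor. Rabggtb, the catalytic subunit that adds the lipid tail, was at 849, against 26.1 for its partner subunit Rabggta. Gdi2, a GDP dissociation inhibitor, was at 759, and the escort proteins Chm and Chml were at 57.7 and 13.1.

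Partners of the melanosomal Rabs were at or above the floor in 9 of 10 cases. Mlph, which encodes the melanophilin that links Rab27a to its motor, had the highest mean normalized count of the 48 genes, 1418, and Myo5a, which encodes that motor, had 807. Sytl2, another Rab27a effector, was at 180. Myrip, which links Rab27a to a different myosin in other cell types, was below the floor at 1.08. Hps1 and Hps4, whose products together form the exchange factor of Rab32 and Rab38, were at similar levels of 65.3 and 61.9. Ankrd27, an effector of Rab32 and Rab38, was at 293, and Sgsm2, which inactivates them, was at 435. Madd, an exchange factor of Rab27 and Rab3 proteins, was at 82.5, and Tbc1d10a, which inactivates Rab27a, was at 99.1.

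Exchange factors of the traffic Rabs had 9 of 11 measured genes at or above the floor, with Ccz1 the highest at 380 and Rab3il1 the lowest at 8.50. Ric1 was not matched. GTPase-activating proteins had 9 of 10, led by Rab3gap1 at 354 and Rabgap1 at 312, with Tbc1d20, which acts on Rab1, below the floor at 3.87. Effectors had 9 of 12. Rabep1, a Rab5 effector, was the highest at 453, and Eea1, which tethers early endosomes under Rab5, was at 179. The Rab11-binding genes Rab11fip2 and Rab11fip3 were at 54.7 and 36.5, and Rph3a, a Rab3 effector of neurons, was the lowest at 0.617.

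**Figure D3:**
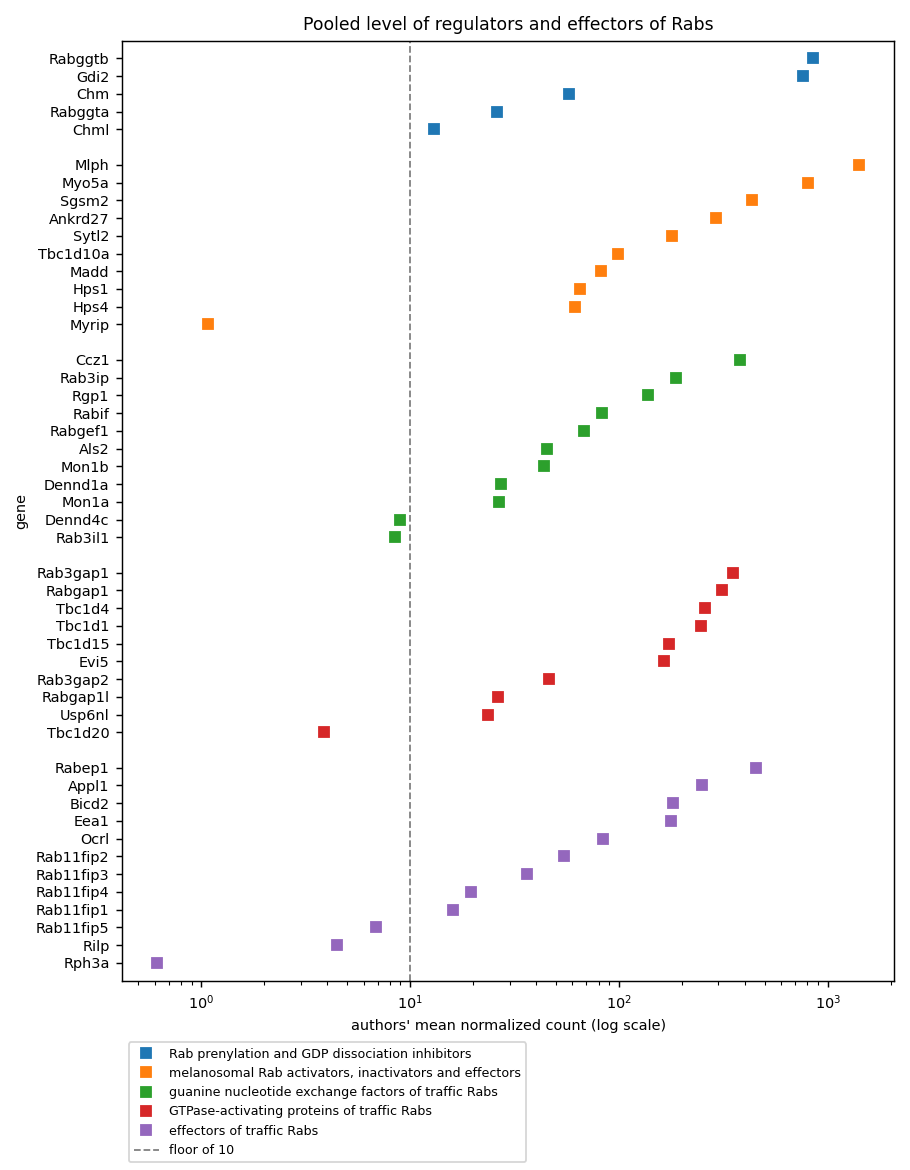
Mean normalized count of 48 genes that modify, activate, inactivate or act downstream of Rabs (squares, log axis), in 5 groups named in the legend, with a dashed line at the floor of 10. Mlph, at 1418, is the highest and Rph3a, at 0.617, the lowest.

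The label of a melanoma line was checked against lineage markers. Of 13 melanocyte lineage genes 11 were at or above the floor, with Dct at 48045, Pmel at 15896, Tyrp1 at 12501 and Mitf at 1794, while Kit and Ednrb were at 2.96 and 1.89. Keratinocyte, endothelial and leukocyte markers were below the floor in all 13 cases, and of 5 fibroblast markers 1 was above it, Col1a1 at 24.9. In bulk RNA, fewer cells of a type and less RNA per cell cannot be told apart. Tbx2, the target of the siRNA, had a pooled mean normalized count of 190, which cannot check the knockdown, and its relative Tbx3 had 2.34.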

How the data were processed

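RNA from 27 B16 samples was made into 3′-end libraries (QuantSeq) with spike-in RNA. Per the submitters' notes, the authors ran FastQC 0.11.7 for quality, STAR 2.6.1d for alignment (build mm10), featureCounts of Subread 1.6.2 for gene counts and DESeq2 1.28.1 for normalization. The signal used, from 3 deposited tables, is a mean normalized count made by the authors, that is, counts divided by size factors and averaged over samples. The tables give no value per sample, so depth per sample is unknown and no interval or leave-one-out value can be had. Each table also holds 5 columns of the authors' own comparison of Tbx2 siRNA with control siRNA (log2 fold change, its error, a statistic, p and adjusted p), which were not used here. Of 23512 entries, 92 spike-ins were left out and 27 had symbols turned into dates.

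Members were matched by symbol, and each Rab gene at or above a floor of 10 and its paralogs are named with values. The members and lists were chosen with earlier results of these data known. A listed gene is not reported here. Positions and transcript lengths came from GENCODE M21, which matched all 58 members, and promoter windows from RefSeq, both GRCm38 (mm10). The last 500 bases overlapped another gene on the same strand for 3 members and on the opposite strand for 5. Values were computed with Python 3.11.15, pandas 2.3.3 and numpy 2.4.6, drawn with matplotlib 3.10.9, and the functions were tested on simulated data. Floors of 1 and 50, other definitions of the groups and values per kilobase were tried as alternatives.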

Additional observations from a re-analysis of the deposited data

How the results depend on the processing

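The number of Rab genes at or above the floor of 10, 42, was 48 at a floor of 1, 36 at a floor of 50 and 37 with the floor applied per kilobase. Their median level of 145 became 102 over all members above 0 (all genes 7.48), 183 at 50 or more (all genes 196) and 59.5 per kilobase (all genes 37.3). The order of the medians of Rabs and all genes thus turned round at 50 or more. The melanosomal share of 32.6% rested on Rab38: without the member of highest level it was 4.55%. It was 31.4% with Rab-like genes in the total, 32.6% with Rab27b added and 45.2% per kilobase. The share of the 5 highest members, 57.9%, was 49.4% among members outside the melanosomal Rabs and 63.9% per kilobase. The 6 genes with an E-box (12.5%, against 8.09% of all genes) became 4 for TCACGTG on either strand (8.33%, against 4.29%). Among the 37 members at or above the floor with a window, 5 had an E-box (13.5%). No share was computed for all genes at or above the floor, so this value has no like background. For the T-element consensus AGGTGTGA the number was 1 (2.08%, against 1.48%), and the shorter motif beneath the study's peaks was not counted. The settings per kilobase and the T-element were chosen after seeing the data. The moves follow from which genes or letters each setting counts or, per kilobase, from the division by transcript length. No paired analysis was possible because the tables hold 1 pooled mean per gene and no value per replicate. For the same reason no replicate could be left out.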

Other observations

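Rab-like genes, which resemble Rabs but carry other symbols, were also measured. Rabl6 had a mean normalized count of 551, above all but 8 of the Rab genes, and Rabl3, Rabl5 and Rabl2 were at 98.9, 55.5 and 46.1.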
